A study of Mus musculus with 3 samples.

Results

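H3K4me3 at gene promoters was compared between control MLg cells and MLg cells given TGFB1 while miR-9, a microRNA, was blocked (miR-9 loss-of-function, LOF). MLg is an established line of mouse lung fibroblasts. The comparison used the H3K4me3 ChIP-seq peak lists of 2 of the 3 deposited libraries. The Ctrl library carried the label WT. The TGFB1+miR-9-LOF library came from cells transfected with an antagomiR against miR-9-5p at 60 nM and treated with 5 ng/ml human recombinant TGFB1 from 20 h after transfection, for 4 h. Cells were harvested 24 h after transfection, and all libraries were made with the same H3K4me3 antibody, ab8580. The study's text describes the control cells as given a control antagomiR and no TGFB1, although the label of this library does not name the probe. The 2 libraries thus differ both in TGFB1 and in the antagomiR, and these cannot be told apart from this pair. The third library, called TGFB1 alone here, carried the label Tgfb treatment, which names no antagomiR. By the study's methods TGFB1 was given at the same dose and time. The study's text describes its cells as transfected with a control or a miR-9 antagomiR. Values of this library are given beside those of single genes and of sets of regions. Where 3 lengths of a gene follow each other without further words, they stand in the order Ctrl, TGFB1 and TGFB1+miR-9-LOF, and 2 lengths of a lost gene are those of Ctrl and TGFB1.

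A promoter peak was a peak whose annotated distance to the nearest transcription start site (TSS) was at most 2000 bp. By this rule 8346 of the 8727 Ctrl peaks and, with TGFB1+miR-9-LOF, 4818 of 4959 peaks were promoter peaks. Overlapping peaks were joined into 8372 promoter regions, out of 22802 peaks in the 3 lists together. Peaks close to the limit were those of Mir130a at -1992 bp, Malat1 at 1988 bp and Arid1a at 1985 bp on the inside. On the outside they were those of Zfp235 at 2017 bp and Mrgbp at 2072 bp. A region was called kept or shared when both lists had a peak there, lost when only Ctrl had one, and new when only TGFB1+miR-9-LOF had one. A lost region had no called peak, which is not the same as no H3K4me3. With 1 library per group there was no replicate check and no test was made. Intervals given with shares and medians are 95% intervals that cover counting error only, because regions of 1 library are not replicates.

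H3K4me3 is a histone mark laid down by the KMT2 and SETD1 methyltransferase complexes around the start sites of active genes. Most promoters carry a narrow peak just downstream of the TSS. Some genes, often those that define a cell type, carry long domains of the mark, which have been linked to steady transcription. TGFB1 is the cytokine that drives fibroblasts toward matrix production and contraction, through receptor kinases and Smad transcription factors. MicroRNAs are best known for pairing with messenger RNAs through their seed, and an antagomiR blocks one by binding to it. G-quadruplexes are DNA structures formed by runs of guanines, common in promoters, and the study asked how nuclear miR-9 relates to them and to H3K4me3.

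The mature miR-9-5p that the antagomiR targets is shown because it is the molecule whose loss defines the treated library. It is encoded at Mir9-1 on chromosome 3, Mir9-2 on chromosome 13 and Mir9-3 on chromosome 7, and the 3 copies give the same 23 bases. Capitals mark the seed, bases 2 to 8. None of the 9 genes listed as miR-9 host loci had a promoter peak in either list.
miR-9-5p: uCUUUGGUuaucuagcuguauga

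Promoter sequences of 7 genes on which the results turn are shown next, from 250 bases before to 50 bases after the TSS of the RefSeq annotation (GRCm38.p6, the build named mm10), each read on the strand of its gene. Capitals mark a quadruplex motif, meaning 4 runs of 3 or more G, or on the other strand C, with 1 to 7 bases between the runs. Zdhhc5 (chr2:84715115-84715414), Ncl (chr1:86359406-86359705) and Safb (chr17:56584732-56585031) kept their peaks. Hdac7 (chr15:97831446-97831745), Taf11 (chr17:27907695-27907994) and Hsph1 (chr5:149636287-149636586) lost theirs, and Gata2 (chr6:88198414-88198713) had a peak only after TGFB1+miR-9-LOF. Safb and Gata2 lie on the plus strand and the other 5 on the minus strand.
Zdhhc5: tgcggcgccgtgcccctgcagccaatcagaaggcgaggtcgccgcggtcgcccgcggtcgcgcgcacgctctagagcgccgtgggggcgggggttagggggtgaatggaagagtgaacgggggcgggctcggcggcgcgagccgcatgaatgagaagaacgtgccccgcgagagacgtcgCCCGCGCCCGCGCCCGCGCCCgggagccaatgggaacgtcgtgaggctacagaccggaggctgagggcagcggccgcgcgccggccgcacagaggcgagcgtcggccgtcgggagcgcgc
Ncl: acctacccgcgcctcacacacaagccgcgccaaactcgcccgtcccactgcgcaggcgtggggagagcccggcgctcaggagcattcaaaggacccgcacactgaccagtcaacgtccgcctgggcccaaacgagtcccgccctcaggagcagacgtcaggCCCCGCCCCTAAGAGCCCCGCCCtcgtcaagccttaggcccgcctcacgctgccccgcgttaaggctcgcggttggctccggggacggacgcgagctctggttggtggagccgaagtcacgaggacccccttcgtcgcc
Safb: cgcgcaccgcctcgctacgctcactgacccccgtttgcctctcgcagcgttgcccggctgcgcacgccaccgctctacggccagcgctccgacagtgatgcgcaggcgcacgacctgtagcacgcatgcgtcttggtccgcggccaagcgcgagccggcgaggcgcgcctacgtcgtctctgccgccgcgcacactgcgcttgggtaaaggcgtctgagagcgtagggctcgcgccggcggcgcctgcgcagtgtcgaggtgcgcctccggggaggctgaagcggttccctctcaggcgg
Hdac7: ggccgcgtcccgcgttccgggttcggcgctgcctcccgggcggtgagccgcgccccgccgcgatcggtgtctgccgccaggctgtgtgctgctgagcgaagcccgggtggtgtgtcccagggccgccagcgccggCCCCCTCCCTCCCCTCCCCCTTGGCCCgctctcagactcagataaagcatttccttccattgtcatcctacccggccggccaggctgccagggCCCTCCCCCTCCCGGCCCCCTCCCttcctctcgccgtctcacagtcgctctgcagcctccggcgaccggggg
Taf11: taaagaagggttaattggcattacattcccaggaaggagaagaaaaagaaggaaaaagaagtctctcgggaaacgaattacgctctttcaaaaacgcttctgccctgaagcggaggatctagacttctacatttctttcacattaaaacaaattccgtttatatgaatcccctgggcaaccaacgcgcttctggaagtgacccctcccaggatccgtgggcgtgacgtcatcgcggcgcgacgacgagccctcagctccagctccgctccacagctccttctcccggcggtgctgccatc
Hsph1: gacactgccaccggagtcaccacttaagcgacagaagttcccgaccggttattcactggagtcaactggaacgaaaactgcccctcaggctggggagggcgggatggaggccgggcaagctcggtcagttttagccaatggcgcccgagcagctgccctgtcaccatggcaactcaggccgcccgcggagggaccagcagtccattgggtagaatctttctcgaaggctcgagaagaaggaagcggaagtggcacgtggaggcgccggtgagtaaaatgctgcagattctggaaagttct
Gata2: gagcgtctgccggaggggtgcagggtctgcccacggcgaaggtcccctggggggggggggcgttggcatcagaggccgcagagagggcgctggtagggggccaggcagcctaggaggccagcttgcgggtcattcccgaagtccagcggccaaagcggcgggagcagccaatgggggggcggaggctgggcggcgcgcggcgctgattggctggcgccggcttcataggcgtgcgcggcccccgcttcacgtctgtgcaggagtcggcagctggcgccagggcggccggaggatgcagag
The motif was found in Zdhhc5, Ncl and Hdac7, and not in the other 4 windows. Motif and no motif thus occurred among kept and among lost promoters of this set, which was chosen with the peak lists in view.

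Of the 8348 promoter regions with a Ctrl peak, 4802 were kept after TGFB1+miR-9-LOF and 3546 were lost. The kept share was 57.5% (56.5% to 58.6%) and the lost share 42.5% (41.4% to 43.5%). In the opposite direction only 24 of the 4826 TGFB1+miR-9-LOF promoter regions were new, a share of 0.497%. The TGFB1+miR-9-LOF promoter peaks were therefore nearly all found in Ctrl, with 99.5% of them (99.3% to 99.7%) over a Ctrl peak. Counted by gene, 3470 of 8434 genes with a Ctrl promoter peak had none after TGFB1+miR-9-LOF, or 41.1%, and 23 genes gained one. Most lost regions had a peak in the library given TGFB1 alone, which covered 3375 of the 3546, and so did 22 of the 24 new regions. Of the 4802 kept regions 4796 had one, so a TGFB1 peak was no mark of the lost regions. The counts of kept, lost and new regions depended on the score limit. With the Ctrl list cut to its 4818 highest-scored promoter peaks, the number in the other list, the kept share was 78.8% and 1024 regions were new, and with a score of at least 60 in either list the kept share was 15.1%.

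Kept regions were shorter in most places. The median covered length of the shared regions was 1817 bp in Ctrl, 1887.5 bp in TGFB1 alone and 1348 bp in TGFB1+miR-9-LOF. The median difference between TGFB1+miR-9-LOF and Ctrl was -460 bp (-470 to -450), with quartiles of -643 and -284 bp. On a ratio scale this was a median log2 of -0.42 (-0.43 to -0.41), a length 1.34-fold greater in Ctrl (1.33 to 1.35). Of the 4802 shared regions, 4622 were shorter, 176 longer and 4 equal in length. A region was called shorter or longer when its log2 ratio was at least 0.32 in size, the fold limit used here. By this limit 3118 regions or 64.9% were called shorter and 6 regions or 0.125% longer. By at least 2-fold, 109 were shorter and none longer. Of the 4796 shared regions that also had a TGFB1 peak, 4584 were shorter in TGFB1+miR-9-LOF than in both other libraries.

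In all, promoter peaks covered 14.4 Mb in Ctrl and 6.69 Mb in TGFB1+miR-9-LOF. Lost regions accounted for 5.40 Mb of the difference and shortening of kept regions for 2.30 Mb, so that 70.1% of the uncovered length lay in regions without any remaining peak. The peaks that remained were also scored lower by the authors' caller. Among kept regions the median score was 96 in Ctrl (quartiles 78 and 118) and 46 in TGFB1+miR-9-LOF (39 and 57), and the score was lower in 4729 regions and higher in 66. The score is not scaled between libraries and the sequencing depth of each library was not used here, so the part of depth or of ChIP yield in the lost and shortened peaks was not tested.

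**Figure D1:**
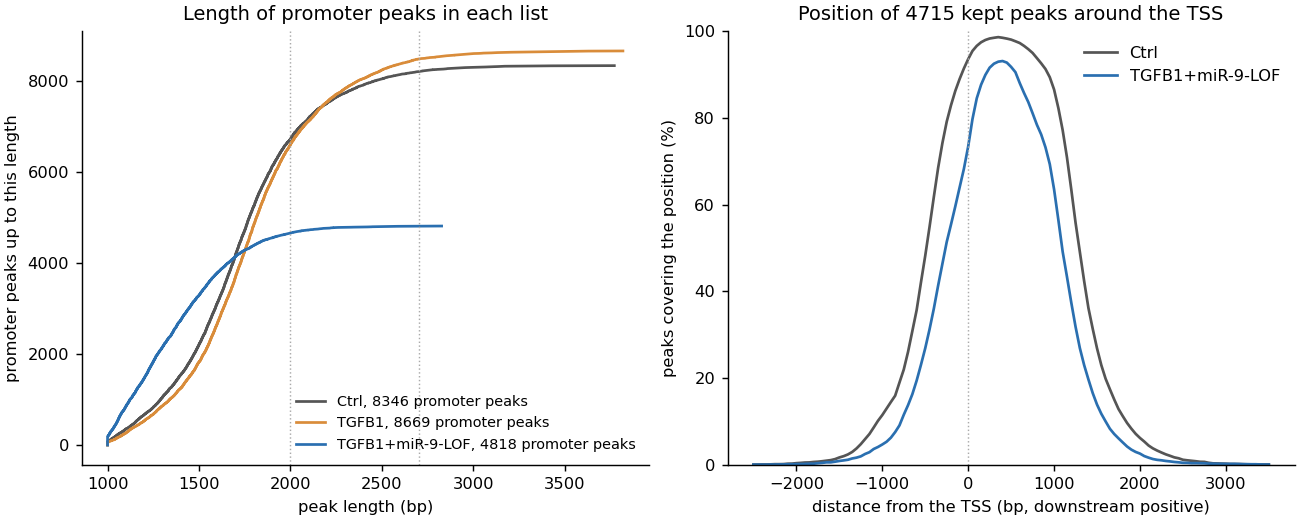
Left, the number of promoter peaks up to each length in bp in the Ctrl, TGFB1 and TGFB1+miR-9-LOF lists, 1 library each, with dotted lines at the 2000 and 2700 bp class limits. Right, the percent of 4715 kept peaks that cover each position in bp from the TSS in Ctrl and TGFB1+miR-9-LOF. The TGFB1+miR-9-LOF list ends at 4818 peaks and is shorter, with a median length of 1347 bp against 1699 bp in Ctrl, and its covered share is lower on both sides of the TSS.

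The length classes shifted toward narrow peaks. With broad peaks defined as 2700 bp or longer and medium peaks as 2000 bp up to that limit, Ctrl had 131 broad promoter peaks, 1.57% of its list (1.32% to 1.86%). TGFB1+miR-9-LOF had 3, or 0.0623% (0.0212% to 0.183%), and TGFB1 alone had 180. Medium peaks made up 17.8% of Ctrl and 3.20% of TGFB1+miR-9-LOF promoter peaks, 1486 and 154 in number. The longest promoter peak was 3770 bp in Ctrl, at Btg1, and, after TGFB1+miR-9-LOF, 2826 bp at Safb. At the short end, peaks of at most 1100 bp were 4.27% of Ctrl and 17.6% of TGFB1+miR-9-LOF promoter peaks. No deposited peak was shorter than 1000 bp, so shorter lengths could not be observed.

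Genes whose long domain was kept but cut back included cell cycle, cytoskeletal and RNA helicase genes. Btg1, an antiproliferative gene, covered 3770, 2725 and 1202 bp, a difference between the outer libraries of -2568 bp and the largest among shared regions. Ddx5, an RNA helicase that works with the microRNA processing complex, covered 3605, 3506 and 1057 bp, a log2 ratio of -1.77. For Ddx5 the length with TGFB1 alone stayed near Ctrl, whereas for Btg1 it lay between the others. Cdk6, a kinase of the G1 phase, covered 3424, 3292 and 1109 bp. Marcks, an actin-binding substrate of protein kinase C, covered 3210, 3511 and 1059 bp. Cyp1b1, a cytochrome P450 enzyme, covered 3145 and 2596 bp and then 1000 bp, the shortest length in the lists. The same pattern was seen at Nfya, a subunit of the CCAAT-binding factor, with 3138, 2873 and 1309 bp, and at Kansl1, a scaffold of a histone acetyltransferase complex, with 3083, 2491 and 1143 bp. The Ctrl scores of these 7 genes lay between 40 and 77 and their TGFB1+miR-9-LOF scores between 28 and 55. They were chosen for the size of this difference, so their values describe the far end of the distribution. In the Ctrl list cut to 4818 peaks only Nfya and Kansl1 of these 7 still had a Ctrl peak.

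Some long domains were lost from the peak list altogether. Taf11, which belongs to the TFIID complex of the core transcription machinery, had 3531 bp at chr17:27906852-27910382 in Ctrl and 3628 bp with TGFB1 alone, and then no peak. Hspe1, the mitochondrial co-chaperonin, had 3362 bp and 3417 bp and then none. Slit2, a secreted guidance ligand, had 3171 bp and 3182 bp and then none. In these 3 genes the TGFB1 value was close to Ctrl. Jak2, a cytokine receptor kinase, had 3093 and 2252 bp, and Ing1, whose protein binds H3K4me3, had 3111 and 2350 bp. Tle1, a Groucho co-repressor, had 3151 and 2567 bp. None of these had a peak in TGFB1+miR-9-LOF. The Ctrl scores of these lost domains ran from 30 at Tle1 to 67 at Taf11, against a median of 68 over all regions with a broad Ctrl peak.

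A few promoters were lost in spite of a high Ctrl score. Hsph1, a heat shock protein of the Hsp110 family, had a 2101 bp Ctrl peak of score 159 and a 2174 bp peak with TGFB1 alone. Gigyf2, a translational repressor, had 1706 bp with score 153 in Ctrl and 1891 bp in TGFB1. Cdc27, a subunit of the anaphase-promoting complex, had 2088 bp with score 148 and 2024 bp. Prc1, which bundles microtubules at cytokinesis, had 1457 bp with score 145 and 2287 bp with TGFB1 alone. All 4 had no TGFB1+miR-9-LOF peak. By comparison, in the highest group of Ctrl scores 1911 of 2079 regions were kept, or 91.9%.

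Among the lost regions, 171 had no peak in TGFB1 alone either. Long ones among these in Ctrl, named after their values were seen, were Ssbp2 with 1622 bp and Rps6ka5, a histone kinase, with 1603 bp. In contrast, Lemd3, which binds Smads at the nuclear envelope, covered 2433 bp in Ctrl, was without a peak in TGFB1 alone, and covered 1737 bp after TGFB1+miR-9-LOF. It was among only 6 shared regions without a TGFB1 peak.

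The genes that the study examined singly differed from each other. Zdhhc5, a palmitoyltransferase, covered 1911, 2606 and 1905 bp, so the Ctrl and TGFB1+miR-9-LOF lengths differed by 6 bp. Its score was 92 in Ctrl and 46 in TGFB1+miR-9-LOF. Ncl, which encodes nucleolin, covered 2669, 3093 and 2060 bp, a difference of -609 bp from Ctrl, with scores of 106 and 48. Ep300, a histone acetyltransferase, covered 2143, 2443 and 1300 bp, with scores of 154 and 39. Hdac7, a class II histone deacetylase, had 1741 and 1790 bp and was lost. Lzts2, a beta-catenin regulator, had 1270 and 1399 bp and was lost too. Prap1, their negative control, had no promoter peak in either list. Thus 3 of the 5 marked genes kept a peak and 2 did not, beside a kept share of 57.5% over all Ctrl promoter regions. The length with TGFB1 alone was above Ctrl in all 5. Over all shared regions the median was also longer with TGFB1 alone, 1887.5 bp against 1817 bp in Ctrl. The share of all regions with a longer TGFB1 peak was not counted.

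**Figure D2:**
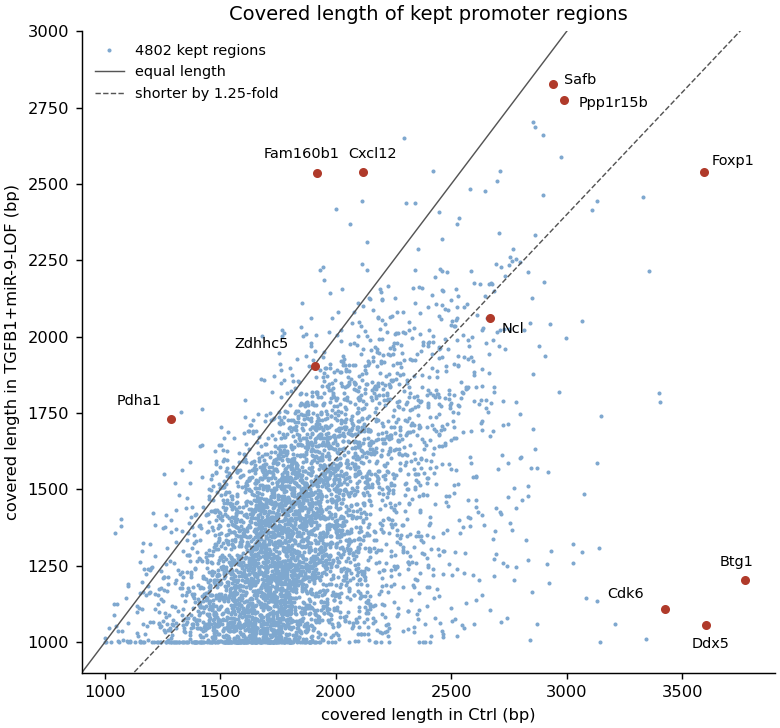
Covered length in bp of the 4802 kept promoter regions in TGFB1+miR-9-LOF (vertical axis) against Ctrl (horizontal axis), 1 point per region and 1 library per axis, with named genes in red. The solid line marks equal length and the dashed line the limit for calling a region shorter. Most points lie under the solid line, Ddx5 and Btg1 lie far under it at 1057 and 1202 bp, Zdhhc5 lies on it, and Pdha1, Fam160b1 and Cxcl12 lie above it.

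Long domains were retained at a small set of promoters. Safb, a nuclear scaffold attachment factor that shares its promoter with Safb2, covered 2940, 3269 and 2826 bp, a log2 ratio of -0.06. Aup1, an adaptor in the degradation of proteins of the endoplasmic reticulum, covered 2852, 3108 and 2704 bp. Ppp1r15b, a phosphatase subunit that acts on the translation factor eIF2, covered 2987, 3558 and 2776 bp. These were the only 3 broad peaks of the TGFB1+miR-9-LOF list. Paics, a purine synthesis enzyme, was longer than Ctrl, with 2422, 2958 and 2543 bp. Foxp1, a forkhead transcription factor, was among the 10 longest TGFB1+miR-9-LOF regions with 2539 bp, yet covered 3595 bp in Ctrl, in a peak of score 49 that the cut Ctrl list did not hold.

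The 6 regions called longer were those of Pdha1, Fam160b1, Lpin2, Slc25a22, H2-T9 and Mfsd3. Pdha1, a subunit of pyruvate dehydrogenase, covered 1287, 2133 and 1729 bp, and was among the few with a higher score, 59 against 40. Fam160b1 covered 1920, 2465 and 2537 bp, the largest gain at 617 bp. Lpin2, a phosphatidate phosphatase, covered 1328, 2119 and 1752 bp. Slc25a22, a mitochondrial glutamate carrier, covered 1068, 1270 and 1404 bp with a score of 46 against 36. Smaller gains were seen at Cxcl12, a chemokine of stromal cells, with 2118, 2427 and 2538 bp, and at Kmt2e with 2002, 2735 and 2419 bp. In each of these 6 examples the TGFB1 peak was also longer than the Ctrl peak. They were chosen for a TGFB1+miR-9-LOF length above Ctrl, and the share of all regions with a longer TGFB1 peak was not counted. With a score of at least 60 in either list, the TGFB1+miR-9-LOF peaks of Fam160b1, Lpin2, Cxcl12 and Kmt2e fell out.

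The 24 new peaks were short and weak. Their median length was 1111.5 bp (range 1000 to 1566) and their median score 36 (27 to 52). Gata2, a transcription factor, had no Ctrl peak, but 2208 bp with TGFB1 alone and 1566 bp after TGFB1+miR-9-LOF. Rpp38, a subunit of RNase P, had 1609 bp and 1521 bp. Mtor, the growth-controlling kinase, had 1742 bp and 1356 bp, and Ercc6, a transcription-coupled repair factor, had 1493 bp and 1397 bp. Wrap53, which acts in telomerase assembly and overlaps the Trp53 locus, had 3817 and 1055 bp in these libraries. The 3817 bp is the full length of TGFB1 signal called over the new region and runs past it. Whether it also takes in the Ctrl peak 1125 bp away was not tested. Only Suv39h2, a histone H3 lysine 9 methyltransferase, with 1168 bp, and Dcp2, the decapping enzyme, with 1033 bp, had a peak in neither Ctrl nor TGFB1 alone. None of the 24 lay within 1000 bp of a Ctrl peak, and the median distance to the nearest was 36729.5 bp. The nearest Ctrl peak was 1125 bp away at Wrap53, 1134 bp at Mrpl54 and 1629 bp at Plekha8, and Limk2 had a further Ctrl promoter peak elsewhere.

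Shortening took place at both ends. Edges were measured for 4715 of the 4799 regions with 1 peak in each list, those where a gene's TSS could be placed. The upstream edge lay at a median of -486 bp from the TSS in Ctrl and -266 bp in TGFB1+miR-9-LOF, and the downstream edge at 1292 and 1096 bp. The edge moved inward by a median of 221 bp upstream (211 to 229) and 210 bp downstream (201 to 218). Both edges moved inward in 3415 regions, or 72.4%, only the upstream edge in 634 and only the downstream edge in 635. The loss of length was therefore close to symmetric around the peak. The peaks sat mostly downstream of the TSS, and the TSS itself was covered by 93.6% of the Ctrl peaks (92.8% to 94.2%) and after TGFB1+miR-9-LOF by 73.4% (72.1% to 74.6%). At promoters with a broad Ctrl peak the edges moved by 475 bp upstream and 476 bp downstream at the median.

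The regions that were lost had lower and shorter Ctrl peaks. Lost regions had a median Ctrl length of 1507 bp (quartiles 1290 and 1695) and a median score of 61 (48 and 77). Kept regions had 1817 bp (1656 and 2035) and 96. In 4 groups of about equal size by Ctrl score, 25 to 59, 60 to 80, 81 to 104 and above 104, the kept share was 18.6%, 47.5%, 72.5% and 91.9%. Length went with retention as well at like score. In the 60 to 80 group, 42.3% of narrow (40.0% to 44.6%), 73.5% of medium (68.3% to 78.2%) and 74.4% of broad promoters (59.8% to 85.1%) were kept. In the 81 to 104 group these shares were 66.8%, 92.3% and 100%, the last being 25 of 25 broad promoters with an interval from 86.7%. In each of the 4 groups the kept share of promoters of at least 2000 bp was above that of narrow ones, by 8.66 to 31.3 percentage points.

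A larger share of broad than of narrow promoters was thus kept, with a larger difference in length where kept. Of the 131 regions with a broad Ctrl peak, 96 were kept, 73.3% (65.1% to 80.1%), with a median difference of -1157.5 bp and a median log2 of -0.79. Of 1486 medium regions 85.5% (83.6% to 87.2%) were kept, with -628 bp and a log2 of -0.48. Of 6731 narrow regions 51.0% (49.9% to 52.2%) were kept, with -402 bp and a log2 of -0.39. A narrow peak could shorten only down to the 1000 bp minimum, which bounds its ratio. The classes were also cut on the Ctrl length that enters the difference and the ratio. The part of this choice in the larger difference of long peaks was not tested. In the highest score group the classes lay close together, with median log2 ratios of -0.35, -0.41 and -0.42 for narrow, medium and broad. In the lowest group they were -0.35, -0.75 and -0.98.

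Ctrl peaks centred 1 to 500 bp downstream of the TSS, the most common place with 4664 regions, were kept in 55.0% of cases. Those centred 0 to 500 bp upstream were kept in 58.4%, and those over 1000 bp downstream in 62.3%. Within the 60 to 80 score group these shares were 43.4%, 57.1% and 52.9%. Those centred over 500 bp upstream were kept in 50 cases, 49.5% (40.0% to 59.1%), and in the highest score group in 13 of 19, 68.4%. At 93 genes with 2 or more Ctrl promoter regions, all regions were kept in 21 genes, some in 43 and none in 29. Outside promoters 130 of 381 Ctrl peaks were kept, 34.1% (29.5% to 39.0%).

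**Figure D3:**
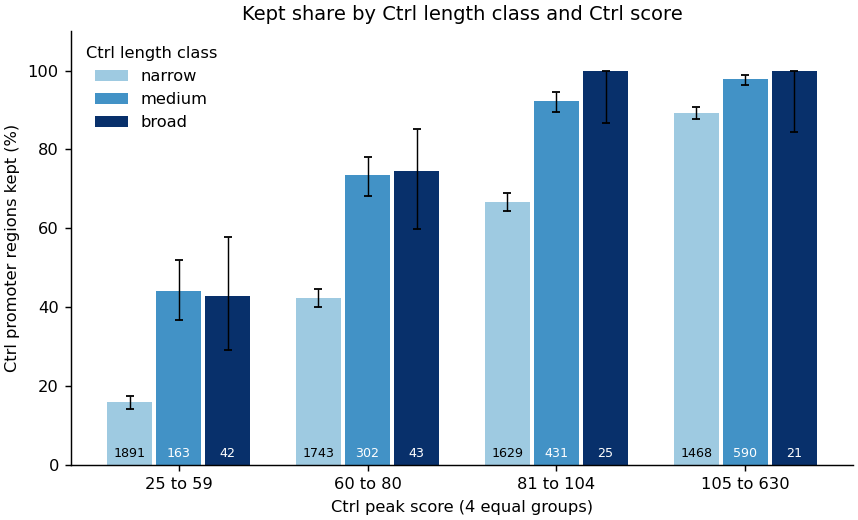
Kept share of Ctrl promoter regions in percent, by group of Ctrl score and by Ctrl length class, with 95% Wilson intervals. The share rises with score in the narrow and medium classes, broad promoters reach 100% in both upper groups, and narrow promoters have the lowest share in each group, from 15.8% to 89.4%.

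Retention varied between chromosomes. On chromosome X 36 of 200 promoter regions were kept, 18.0% (13.3% to 23.9%), and on chromosome 16 65 of 244, 26.6%. Chromosome 12 kept 33.2% and chromosome 4 41.2%. At the other end chromosome 11 kept 70.8% and chromosome 19 72.9% (67.7% to 77.6%), 221 of 303. The median Ctrl score lay in nearly the same order, from 53 on X and 60 on chromosome 16 to 96 on chromosomes 11 and 19. Over the 20 chromosomes the kept share and the median Ctrl score had a Pearson r of 0.98 and a Spearman rho of 0.98, given as a description because the chromosomes come from the same pair of libraries. The score groups alone would give a kept share of 31.1% on X and 38.2% on chromosome 16, so that X differed by -13.1 and chromosome 16 by -11.6 percentage points from the share of their score groups. Within the lowest 2 groups the median score on X was itself lower, 45 against 48 and 67 against 70. Ctrl peaks were also shorter, with a median of 1432 bp on X and 1534 bp on chromosome 16 against 1699 bp over all Ctrl promoter peaks. The part of either in these differences was not tested. In the 60 to 80 group X kept 25.5% (15.5% to 38.9%) and chromosome 11 58.5%. Without X, a choice made after the data were seen, the kept share was 58.5% and the median log2 over kept regions -0.42.

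**Figure D4:**
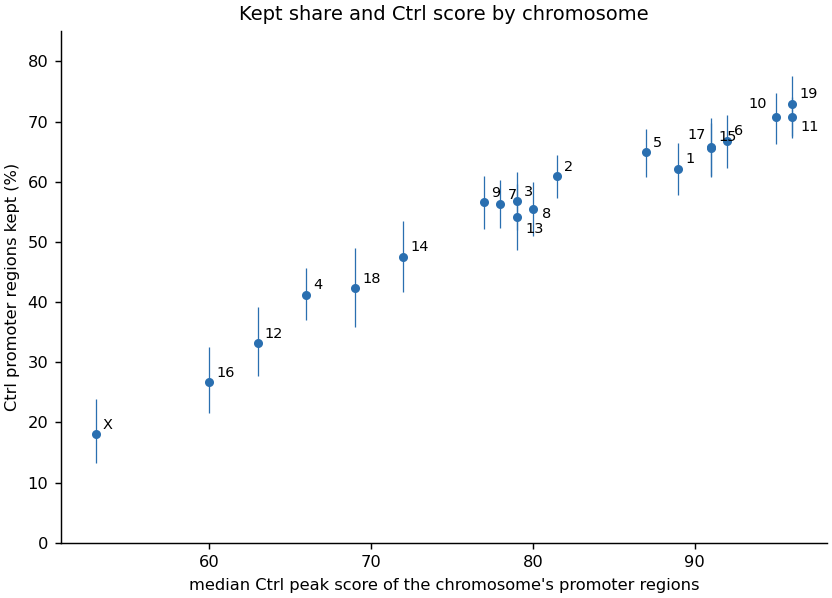
Kept share of Ctrl promoter regions in percent against the median Ctrl score, 1 point per chromosome, with 95% Wilson intervals. Chromosome X is lowest at 18.0% and chromosome 19 highest at 72.9%, in the order of their Ctrl scores.

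Counts of genes by list are to be read against 41.1% of all genes lost and 65.5% of all kept genes called shorter, and against the lost share of all genes in the same Ctrl score groups. Among the receptors of TGFB, activin and BMP, 6 of 9 genes with a Ctrl peak had none, while their score groups lost 47.9%. Tgfbr1, the type I receptor of TGFB, had 1551 and 1959 bp and was lost. Tgfbr2, the type II receptor, was kept with 1901, 1957 and 1213 bp, and Tgfbr3, the co-receptor betaglycan, with 1624, 1915 and 1532 bp. Acvr2a, an activin receptor, had the longest peak lost from the group, with 2520 and 2035 bp. Of the Smads and their regulators 9 of 13 were lost, 69.2% (42.4% to 87.3%) against 51.3% in their score groups. Smad3, the main effector of TGFB1, was kept but shortened, with 1961, 2295 and 1104 bp. Ski, a co-repressor of Smads, had 2506 and 2433 bp, and Smad6, an inhibitory Smad, had 2341 and 2036 bp, and both were lost. With 9 and 13 genes these shares have wide intervals, and the first list's runs from 35.4% to 87.9%.

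Of 21 genes that fibroblasts turn on with TGFB1, 7 were lost, 33.3% (17.2% to 54.6%) against 49.6% in their score groups. With a score of at least 60 in either list the order turned, with 12 of 13 lost, 92.3% against 84.2% of all genes. Vegfa, the endothelial growth factor, was kept with 3398, 3517 and 1816 bp, and Snai2, a transcription factor of mesenchymal cells, with 2598, 2133 and 1061 bp. Ankrd1, an ankyrin repeat protein, had 2715 and 2702 bp, and Id2, an inhibitor of DNA binding, had 1715 and 1851 bp, and both were lost. Tgfb1 itself was kept with 2264, 2066 and 1250 bp. The median log2 over the kept genes was -0.52.

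Extracellular matrix genes were kept in 16 of 19 cases, and 14 of the 16 were called shorter. The lost share was 15.8% (5.52% to 37.6%), against 36.2% in the score groups of these genes, and the median log2 was -0.66. Thbs1, thrombospondin, covered 2685, 2540 and 1217 bp and Col5a1, a fibrillar collagen chain, 2557, 2397 and 1226 bp. Vcan, a proteoglycan, had 2650 and 2988 bp and was lost, as were Mmp2 and Fbn1. Col1a1, the main collagen chain, was the exception with 1775, 2665 and 2013 bp, while its partner Col1a2 covered 1758, 1883 and 1065 bp. Col4a1 and Col4a2 share a promoter region and hold the same values. Contractile and actin linker genes were similar, with 5 of 26 lost, 19.2% (8.51% to 37.9%) against 29.4%. Acta2, smooth muscle actin, covered 2069, 1655 and 1504 bp, and Myh9, non-muscle myosin, had 2366 and 1900 bp and was lost.

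Immediate early genes were divided. Of 28 in the list 8 were lost, 28.6% (15.2% to 47.1%) against 43.9% in their score groups. The lost ones included Jun with 2090 and 1825 bp, Egr1 with 1850 and 1788 bp, and Dusp4, whose product inactivates MAP kinases, with 2961 and 1707 bp. Fos was kept with 1496, 1530 and 1027 bp and Myc with 2771, 2314 and 1203 bp. Fosb, another AP-1 subunit, was longer than Ctrl, with 1414, 2014 and 1641 bp. Mesenchymal transcription factors had the lowest Ctrl scores of these groups, a median of 57. Of 17 such genes 8 were lost, 47.1% (26.2% to 69.0%) against 58.7% in their score groups. Among the 8 were Twist1 with 1270 bp and Zeb2 with 1894 bp. Prrx1 was kept with 2459, 2691 and 2321 bp and Runx2 with 2566, 3473 and 2106 bp.

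Cyclin and cell cycle kinase genes had the lowest lost share among the curated lists with a Ctrl peak, 3 of 32 or 9.38% (3.24% to 24.2%), against 28.6% in their score groups. Yet 28 of the 29 kept genes were called shorter. Ccne1 and Ccne2, the cyclins of S phase entry, and Cdc25b, a phosphatase that activates Cdk1, were the 3 lost. Of 63 cytosolic ribosomal protein genes 10 were lost, 15.9% (8.86% to 26.8%) against 21.6% in their score groups, with 28 of the 53 kept genes called shorter and a median log2 of -0.36. Rplp0, a stalk protein, had 2098 bp in Ctrl and was lost, whereas Rps21 was longer, with 2010, 2222 and 2082 bp. Of the 29 small nucleolar RNA genes 2 were lost, 6.90% (1.91% to 22.0%) against 27.5% in their score groups. These RNAs lie within host genes, several of which encode ribosomal proteins, so their regions are in part the same ones. Snord35b, with 1249 and 1072 bp, was among those lost.

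Of 24 heat shock chaperone genes 8 were lost, 33.3% (18.0% to 53.3%) against 31.0% in their score groups, and 7 of the 16 kept were called shorter. Their median log2 of -0.29 was nearer to 0 than that of any other of the 33 lists with at least 10 genes. Its interval, -0.56 to -0.20, held the median of all kept genes, -0.42. Tcp1, a subunit of the cytosolic chaperonin, covered 2696, 2712 and 2511 bp. Hsp90aa1, the inducible Hsp90, had 1911 bp in Ctrl and was lost along with Hspe1 and Hsph1. Mitochondrial ribosomal protein genes were lost in 21 of 63 cases, 33.3% against 30.7% in their score groups. Respiratory chain and ATP synthase genes were lost in 21 of 76 cases, 27.6% against 28.7%.

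Of 21 genes that write, read or remove H3K4 methylation 6 were lost, 28.6% against 30.9% in their score groups. Kmt2a, the MLL1 methyltransferase, had 2428 and 2465 bp and was lost, as were Ash2l, a core subunit, with 1662 and 1951 bp, and the demethylases Kdm1a, Kdm1b and Kdm5b. Kmt2d was kept with 2831, 2682 and 1270 bp and Setd1a with 1834, 1916 and 1349 bp. Of 22 Polycomb genes 7 were lost, 31.8% (16.4% to 52.7%) against 43.0% in their score groups. Jarid2, with 2166 and 2420 bp, was among the 7. Kdm2b, which brings Polycomb to CpG islands, was cut from 3578 and 3450 to 1406 bp. Of 18 microRNA processing genes 5 were lost, 27.8% (12.5% to 50.9%) against 38.5% in their score groups. Dicer1, which cuts precursors, had 1652 and 1446 bp and was lost, whereas Drosha was kept with 2348, 1971 and 1531 bp and Ago2 with 2076, 2168 and 1428 bp. Tarbp2, a partner of Dicer, had nearly the same length in the outer libraries, 1047 and 1052 bp, and 3165 bp with TGFB1 alone.

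Genes of G-quadruplex helicases and binding proteins were lost in 6 of 19 cases, 31.6% (15.4% to 54.0%) against 40.3% in their score groups. With a score of at least 60 in either list 13 of 14 were lost, 92.9% against 84.2% of all genes. Pif1 with 1996 and 1883 bp and Wrn with 1939 and 2226 bp, both helicases, were lost. Dhx36, a helicase that resolves quadruplexes, was kept with 1891, 1647 and 1116 bp, and Dhx9 with 1817, 1875 and 1699 bp. Of 17 cohesin and looping genes with a Ctrl peak 7 were lost, 41.2% (21.6% to 64.0%) against 42.5% in their score groups. The cohesin subunits Smc1a with 1688 bp and Rad21 with 1660 bp were among the 7. Ldb1, a looping adaptor, was instead new, with 1750 bp under TGFB1 alone and 1140 bp here. Smc3 stayed close to Ctrl with 1874, 1926 and 1782 bp.

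**Figure D5:**
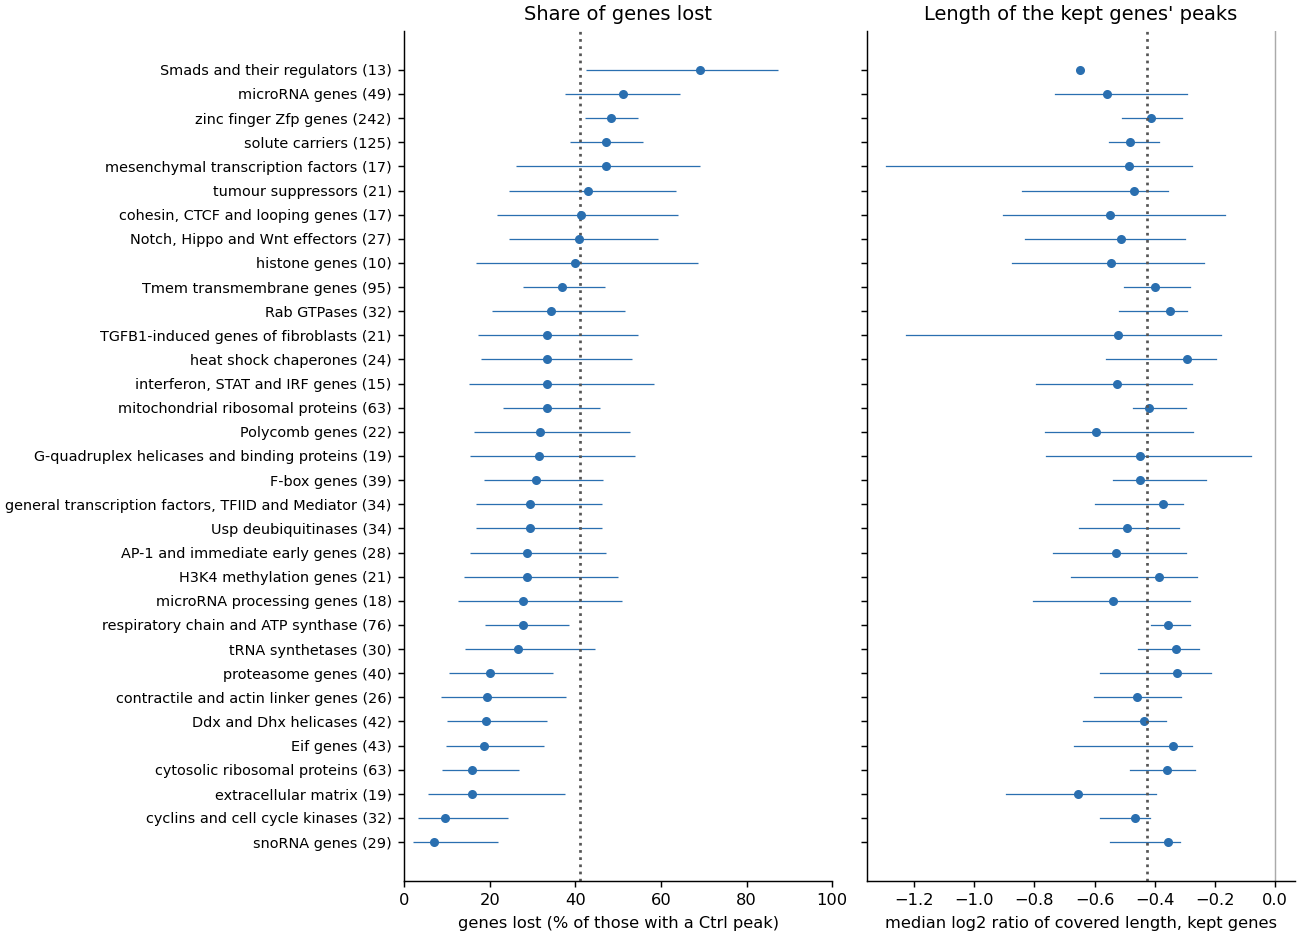
Left, percent of genes lost of those with a Ctrl promoter peak, for the 33 lists with at least 10 genes (number in parentheses), with 95% Wilson intervals. Right, median log2 ratio of covered length over the kept genes, with 95% order-statistic intervals where the number of genes allowed one. Dotted lines mark all genes, 41.1% lost and a median of -0.42. Small nucleolar RNA genes lie lowest at 6.90% lost and Smads and their regulators highest at 69.2%, and each median lies below 0.

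Zinc finger Zfp genes were lost in 117 of 242 cases, 48.3% (42.1% to 54.6%) against 46.6% in their score groups. Solute carriers were lost in 59 of 125 cases, 47.2% against 44.9%, and microRNA genes in 25 of 49, 51.0% against 47.6%, so that all 3 shares lay near those of their score groups. With a score of at least 60 in either list solute carriers and microRNA genes lay below all genes, at 78.4% and 80.6% against 84.2%. Mir21a, a microRNA that TGFB1 is known to raise, was kept with 3026, 2977 and 1320 bp. Of the 33 lists and families with at least 10 genes, 26 had a lost share under that of all genes and all 33 had a median log2 below 0 over their kept genes. With a score of at least 60 in either list 18 of 30 lists lay below all genes, 14 of them also below without this limit, and with the Ctrl list cut to the size of the other list 20 of 29 did. Which lists lay below all genes thus depended in part on the score limit. Immediate early genes, at 85.7%, and microRNA processing genes, at 92.3%, lay above the 84.2% of all genes with the limit of 60, and H3K4 methylation genes, at 26.7%, above the 20.4% of all genes with the cut Ctrl list.

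The cell identity of the libraries was checked with marker genes. Of 10 fibroblast markers 7 had a Ctrl promoter peak, and 2 of these were lost, Pdgfra with 3041 and 3458 bp and Twist1. Vim covered 2311, 2506 and 1241 bp and Fn1 1879, 2196 and 1327 bp. No marker among 6 epithelial, 5 endothelial and 4 neural genes had a Ctrl promoter peak. Of 5 immune markers Cd14 had a peak, with 1472 and 1200 bp, and it was lost.

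The quadruplex motif described above was counted in the 300 bp promoter windows of 8336 of the 8372 regions, 99.6%. It was present in 28.8% of kept promoters (27.5% to 30.1%) and 33.7% of lost promoters (32.2% to 35.3%), and in 5 of 24 new ones. Over all 32851 promoters of the RefSeq table it was present in 18.6%. Within score groups the shares of kept and lost promoters were 33.0% and 35.4%, 32.7% and 32.6%, 30.5% and 31.5%, and 24.7% and 31.5%. The difference between kept and lost promoters was therefore small in the lower 3 groups and larger in the highest, where the intervals still overlapped. Median GC content was 63.0% in kept and 62.3% in lost windows, with 24 and 22 CpG sites. A match to the motif is a property of the letters and does not show that a quadruplex forms.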

How the data were processed

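H3K4me3 ChIP-seq peak lists of 3 MLg libraries were used as deposited, 1 library per group. The submitters' processing notes give the mm10 build and name as tools HOMER, bedtools, MACS3, deepTools 3.5.1, Picard 1.119, Bowtie2 and Trimmomatic. The authors called peaks in each library separately and deposited, per peak, the start and end, the HOMER annotation, the distance to the nearest TSS and the caller's score, which is not scaled between libraries. For H3K4me3 the study's methods give MACS3 in broad mode, with duplicates removed and reads extended to 1000 bp without a fragment model. The methods state these settings for CUT&Tag and for several kinds of sequencing data together, not for these ChIP-seq libraries by name. Input controls and read depth were not used here, and a weaker or shallower library could give fewer and shorter peaks.

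Peaks whose distance to the TSS was at most 2000 bp were promoter peaks. Peaks of the Ctrl and TGFB1+miR-9-LOF lists that overlapped by at least 1 bp were joined into regions, and covered length was summed as end minus start plus 1 over the peaks of a region. A region was called shorter or longer at a log2 ratio of 0.32 in size. For genes with several promoter regions the covered lengths were summed. Intervals are at 95%, by Wilson's method for shares and from order statistics for medians. No test was possible with 1 library per group. Score groups are 4 groups of about equal size by Ctrl score, and the share in the score groups of a list or chromosome is the mean over its members of the share in each member's group.

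Genes named in the text were the genes the study examined singly, the 10 shared regions with the largest decrease and the 10 with the largest increase in covered length, the 10 longest and the 5 highest-scored lost regions, up to 10 new regions by length, the 10 longest regions in TGFB1+miR-9-LOF, the 5 broad Ctrl regions whose ratio was nearest to 0, and members of each of the 24 gene lists, the largest changes first. Some items are not reported here. Further list members, the lost regions without a TGFB1 peak and single new regions were named after their values were seen. The 24 lists and 17 families, the regions and the comparisons were chosen with earlier results of these data known. Promoter windows and microRNA sequences come from RefSeq on GRCm38.p6.

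Alternatives were a score minimum, a Ctrl list cut to the size of the TGFB1+miR-9-LOF list, other promoter windows, fold limits, class limits, overlap rules, TSS sources and motif loops. The computation was tested on simulated peak lists and used Python 3.11.15, numpy 2.4.6, pandas 2.3.3, scipy 1.17.1 and matplotlib 3.10.9.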

Additional observations from a re-analysis of the deposited data

Results flagged for a closer look

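Outside promoters, which the comparison above does not use, 4 of the 141 TGFB1+miR-9-LOF peaks had no overlapping Ctrl peak. They lay nearest to Rflna (1019 bp), Ccnl1 (1006 bp), Abca17 (1102 bp) and 4930440I19Rik (1003 bp), and all were close to the shortest length in the lists.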

How the results depend on the processing

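No paired analysis was possible because each group had 1 library, and for the same reason no replicate could be left out. The median length difference kept its direction under every alternative, but single named regions did not where a score limit removed the peak of 1 library. With a score of at least 60 in either list the kept share was 15.1%, 6 regions were new, the median log2 was -0.33, 52.0% of shared regions were shorter and 0% longer by the fold limit, medium peaks were 21.2% of Ctrl and 4.21% of TGFB1+miR-9-LOF and broad peaks 0.211% of the latter, the edges moved by 191 bp upstream and 181 bp downstream, the TSS was covered by 95.2% of Ctrl and 78.9% of TGFB1+miR-9-LOF peaks, 84.2% of genes were lost, the motif was in 26.8% of kept and 30.0% of lost promoters, and long promoters exceeded narrow ones by at least 1.39 points. With the Ctrl list cut by score to the 4818 peaks of the other list the kept share was 78.8%, 1024 regions were new, the median log2 was -0.41, 0.0264% were longer, broad and medium peaks were 1.18% and 23.6% of Ctrl, the smallest difference by length was 4.81 points and 20.4% of genes were lost. So the share lost depends on the score limit, while shortening of shared regions was present in both.

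A fold limit of 1.5 gave 27.1% shorter and 0% longer, and any difference 96.3% and 3.67%. A promoter window of 1000 bp gave 1.22% broad and 16.3% medium peaks in Ctrl and TSS coverage of 97.1% and 76.7%. Class limits at the Ctrl median and upper quartile gave 25.01% broad and 25.1% medium peaks in Ctrl and 4.88% and 9.17% in TGFB1+miR-9-LOF. With 10 score groups the smallest difference by length was 2.66 points. Among Ctrl peaks of at least 2000 bp the edges moved by 314 and 293 bp and the TSS was covered by 92.7% and 70.2%. TSSs of GENCODE within 500 bp gave 39.0% of genes lost, and loops of up to 12 bases put the motif in 44.4% of kept and 49.2% of lost promoters. Chosen after the data were seen, TGFB1+miR-9-LOF peaks of at least 1200 bp gave a median log2 of -0.34, edge shifts of 189 and 183.5 bp and TSS coverage of 78.9%. The other 51 values of the main results stayed within their counting interval or, for counts, within 1.5 times. Some of these could not change, because the alternative left the peaks behind them as they were, so their number is no measure of stability. Examples were the class shares under the other overlap rule and those of TGFB1+miR-9-LOF with the cut Ctrl list.

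Among named regions, the score minimum of 60 removed the TGFB1+miR-9-LOF peak of 6 longer regions, so that the difference in covered bp became -1920 at Fam160b1, -1328 at Lpin2, -2118 at Cxcl12, -2002 at Kmt2e, -2295 at Snhg1 and -2113 at Ruvbl2. The cut Ctrl list removed the Ctrl peak of 6 shortened regions, which became 1057 at Ddx5, 1109 at Cdk6, 1059 at Marcks, 1000 at Cyp1b1, 1008 at Rusc2 and 2539 at Foxp1.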
